A study of Mus musculus with 39 samples.

Results

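The genes described here are the fibroblast growth factor (FGF) genes, their receptors and the Sprouty genes, taken from the deposited tables by symbol (Fgf with a number, Fgfr1 to Fgfr4, Fgfrl1 and Spry with a number) and joined between the tables by Ensembl identifier. They were 30 of the 21561 genes listed in both tables: 18 genes of secreted ligands, 4 genes of intracellular FGFs (Fgf11 to Fgf14), 5 receptor genes and 3 Sprouty genes (Spry1, Spry2 and Spry4). RNA-seq counts came from gubernaculum and testis of male C57BL/6J mice at postnatal day (P) 8, 23 and 40, from 39 libraries in 13 groups of 3, which the titles name as biological replicates. The genotypes were wild type (WT), INSL3-KI and INSL3-KO. INSL3-KI mice carry the minke whale INSL3 cDNA on both copies of the mouse Insl3 locus, with the neomycin cassette removed by crossing to Cre females, so that the locus carries the whale coding sequence in every tissue. INSL3-KO mice lack Insl3, and how that allele was made is not given in the sources used here. In gubernaculum the groups were WT, INSL3-KI and INSL3-KO at P8 and WT and INSL3-KI at P23. In testis they were WT, INSL3-KI and INSL3-KO at P8 and at P23, and WT and INSL3-KI at P40. Gubernaculum of INSL3-KO mice at P23 and INSL3-KO testis at P40 were not analysed here.

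INSL3 is a hormone of the Leydig cells of the testis that drives the gubernaculum, the cord that guides the testis toward the scrotum. FGFs are signals between neighbouring cells. A secreted FGF binds a receptor tyrosine kinase (Fgfr1 to Fgfr4) together with heparan sulfate, a sugar chain on the cell surface, and the receptor then signals through the Ras and ERK kinases to switch on genes such as those of the Etv factors, the phosphatase Dusp6 and the Sprouty proteins, which in turn hold the pathway back. Fgfrl1 is a receptor without a kinase domain. Fgf11 to Fgf14 are not secreted and act inside cells, on sodium channels among other partners. In muscle, Fgf6 and Fgfr4 are known from myoblasts and regenerating fibres. In epithelia of the reproductive tract, Fgfr2 receives Fgf7 and Fgf10 from the mesenchyme, and in the fetal testis Fgf9 sustains Sertoli cells.

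The libraries held 29861447 to 45260372 counts (median 36944626), of which 94.2% to 97.9% fell on the genes shared by the tables. The first table held the WT and INSL3-KI libraries other than WT testis at P23, and the second held that group and the INSL3-KO libraries, so in comparisons of groups from different tables the table and the genotype cannot be told apart. Dividing counts by the deposited FPKM values gives the length each table counted over. By that measure Fgf2 was counted over 0.145 of its first-table length in the second table, Fgf22 over 0.296 and Fgf12 over 0.793, and these 3 genes were read for genotype only within a table. Among all genes 15967 of 17529 had the same length within a factor of 1.25, and the length of Fgf6 could not be checked since no library of the second table had over 4 counts of it. For the other pathway genes and the cell type markers named below, lengths were not compared gene by gene. The targeted gene, Insl3, had 2722 to 3524 counts in WT testis at P8, 20183 to 29799 at P23 and P40, and 15 to 511 in INSL3-KI testis. It had 0, 5 and 0 counts in INSL3-KO testis at P23 but 906, 804 and 613 in the P8 testis libraries labelled INSL3-KO, below WT and far from 0, so this last group is named by its label wherever a direction is drawn from it. The markers of the labelled tissue were present: the 16 skeletal muscle genes summed to 42600 to 47000 CPM (counts scaled to library size) in WT gubernaculum at P8, against 54.2 to 96.1 in WT testis.

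The CPM unit is a count scaled to a common effective library size by the trimmed mean of M values (TMM) over all libraries of a tissue. A gene was called where edgeR's quasi-likelihood test gave a Benjamini-Hochberg adjusted p under 0.01 over all genes tested and the fold change was at least 2. Only called genes are said to rise or fall, and other values are given as levels.

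Promoters of a ligand and a pair of receptors show the genes on which the results in gubernaculum turn: Fgf6, which had over 9 counts only in WT gubernaculum, Fgfr2, which rose in the mutants, and Fgfr4, which fell. Each sequence runs 5′ to 3′ on the strand of the gene, from 250 bases before to 50 bases after a RefSeq transcription start (GRCm38.p6), in lower case with each E-box (CANNTG, the core motif bound by MyoD and other basic helix-loop-helix factors, searched on both strands, on which it reads alike) in capitals.
Fgf6, chr6:127015292-127015591, plus strand: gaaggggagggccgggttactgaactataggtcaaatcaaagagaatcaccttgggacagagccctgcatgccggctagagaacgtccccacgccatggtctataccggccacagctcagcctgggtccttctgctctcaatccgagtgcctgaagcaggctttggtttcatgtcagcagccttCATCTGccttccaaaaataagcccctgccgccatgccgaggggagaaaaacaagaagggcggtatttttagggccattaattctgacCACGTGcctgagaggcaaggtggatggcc
Fgfr2, chr7:130266759-130267058, minus strand: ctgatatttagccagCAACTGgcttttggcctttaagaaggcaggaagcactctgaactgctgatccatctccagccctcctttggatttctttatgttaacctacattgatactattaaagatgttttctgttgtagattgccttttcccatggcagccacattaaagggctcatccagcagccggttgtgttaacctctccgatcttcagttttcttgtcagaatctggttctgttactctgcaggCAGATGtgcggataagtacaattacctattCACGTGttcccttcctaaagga
Fgfr4, chr13:55152568-55152867, plus strand: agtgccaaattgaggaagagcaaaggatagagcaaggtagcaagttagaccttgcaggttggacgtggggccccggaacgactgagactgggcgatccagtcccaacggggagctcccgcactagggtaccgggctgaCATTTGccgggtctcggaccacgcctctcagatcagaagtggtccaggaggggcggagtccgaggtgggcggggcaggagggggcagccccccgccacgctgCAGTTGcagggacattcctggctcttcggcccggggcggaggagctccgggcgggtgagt
The Fgf6 window held 2 E-boxes, that of Fgfr2 3 and that of Fgfr4 2, and none of them read CAGCTG, the form most used by MyoD, which stood in 16.3% of 32851 promoters of the same length. Promoters were found for 22 of the 30 genes, and 21 of their 29 windows held an E-box, beside 72.3% of all promoters. A match of letters is a description and not a binding site. By GENCODE M21 on GRCm38, Fgf6 lies at chr6:127015586-127028187 on the plus strand, Fgfr2 at chr7:130162451-133123350 on the minus strand and Fgfr4 at chr13:55152640-55168759 on the plus strand. The annotated span of Fgfr2 extends far upstream of the window printed above. Its exons share 314 bases with Ctbp2 on the same strand, 3.0% of its exonic bases.

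At P8 the gubernaculum of both mutants had no Fgf6 count, lost most transcripts of Fgfr4 and Fgfrl1, and gained those of Fgfr2, Fgfr3 and Fgf15. In INSL3-KI, 14 of the 23 genes tested were called, 11 lower and 3 higher, beside 24.1% of all genes tested (9.7% lower and 14.4% higher). In INSL3-KO, 13 of 23 were called, 10 lower and 3 higher, beside 30.7% of all genes, 15.2% lower and 15.5% higher. Without the genes known to be counted over different lengths there were 11, 8 lower and 3 higher. Fgf6, whose length could not be checked, was kept among these. With scaling by library size alone the INSL3-KO split was 6 lower and 4 higher. Both mutants were set against the same 3 WT libraries. The heat map of fold changes sets all mutant groups side by side.

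**Figure D1:**
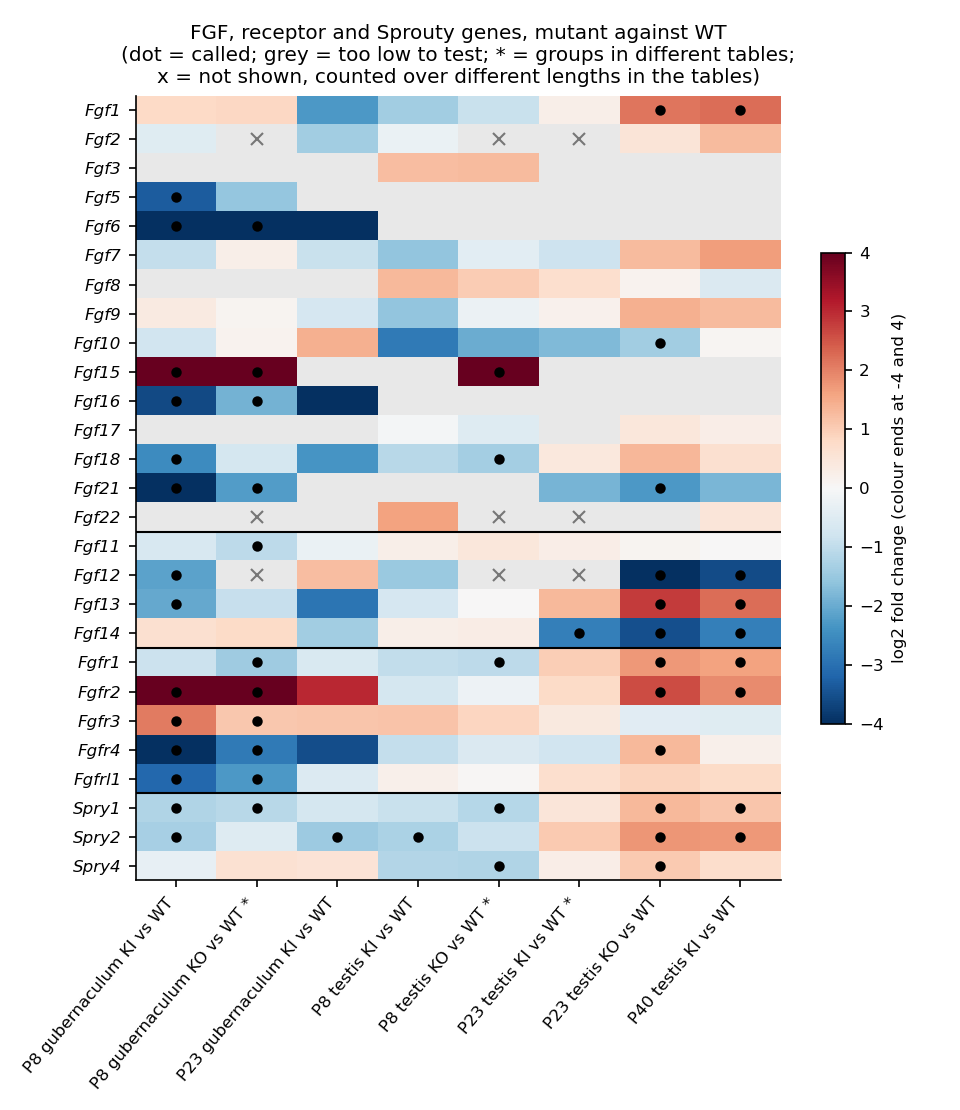
Log2 fold change of mutant against WT (colour, ending at -4 and 4) for each gene tested in at least 1 of 8 comparisons (columns), grouped by ligands, intracellular FGFs, receptors and Sprouty genes, with a dot for each called gene. In P8 gubernaculum Fgf6, Fgfr4 and Fgfrl1 are blue and Fgfr2, Fgfr3 and Fgf15 red in both mutants, while in testis at P23 (INSL3-KO) and P40 (INSL3-KI) Fgfr1, Fgfr2, Spry1 and Spry2 are red. Columns with an asterisk join groups of different tables, and a cross marks the genes counted over different lengths there.

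Among the ligands, Fgf6 had 216, 199 and 257 counts in WT gubernaculum at P8 and no count in any of the 6 mutant libraries. The groups did not overlap. For INSL3-KO the length over which Fgf6 was counted could not be checked, so there the table and the genotype cannot be told apart. INSL3-KI was lower at least 82.6-fold (adjusted p = 2.5e-05, edgeR, at a floor of 3 counts per library) and INSL3-KO at least 97.1-fold (adjusted p = 3.2e-05). At P23 it had 276, 185 and 237 counts in WT and 0, 0 and 3 in INSL3-KI, a ratio of WT to INSL3-KI of 297 (95% counting interval 101 to 1440) that did not pass the threshold (adjusted p = 0.011). Fgf6 is a ligand of skeletal muscle, and the muscle markers moved with it: the 16 skeletal muscle genes summed to 42600 to 47000 CPM in WT, 1300 to 2090 in INSL3-KI and 8220 to 8860 in INSL3-KO, with 15 and 13 of the 16 called lower. Of the 10 satellite cell and myoblast genes, 9 were tested and 8 and 6 were called lower in INSL3-KI and INSL3-KO, and Pax7 and Myf6 had 0 counts in the 3 INSL3-KI libraries. The part of these cells in the result was not tested, and in bulk tissue fewer cells of a type and less RNA per cell cannot be told apart.

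Fgf15, the mouse counterpart of human FGF19 and best known as a hormone of the ileum, went the other way. It had 0 counts in the 3 WT libraries at P8, 72, 92 and 123 in INSL3-KI and 44, 37 and 62 in INSL3-KO. No mutant library was at the WT level, and the rise was at least 29.2-fold in INSL3-KI (adjusted p = 0.00026) and at least 12.2-fold in INSL3-KO (adjusted p = 0.00069). At P23 it was present in a pair of INSL3-KI libraries (22 counts in replicate 1, 0 in replicate 2 and 22 in replicate 3) and had 0, 0 and 2 counts in WT. Its exons share 761 bases with Gm26793 on the other strand, 24.9% of its exonic bases, and since the strand setting of the counting is not given in the sources used here, reads of the pair cannot be told apart.

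Fgf16, a ligand of the Fgf9 subfamily known from heart and brown fat, and Fgf18, a ligand of cartilage and bone, were both lower in INSL3-KI at P8. Fgf16 had 4.39, 5.49 and 8.03 CPM in WT, 0.481, 0.451 and 0.496 in INSL3-KI and 1.46, 1.65 and 1.69 in INSL3-KO. It fell by 3.60 ± 0.34 on the log2 scale (± is the standard error of the fit throughout, n = 3 against 3) in INSL3-KI (adjusted p = 5.9e-05), and the value in INSL3-KO was -1.90 ± 0.28 (adjusted p = 0.00074). Its level in INSL3-KO lay between the other groups, without overlap. Fgf18 had 7.33, 6.60 and 8.92 CPM in WT, 1.47, 0.873 and 1.55 in INSL3-KI and 4.98, 5.46 and 3.77 in INSL3-KO. It fell by 2.51 ± 0.29 in INSL3-KI (adjusted p = 0.00018), whereas the INSL3-KO value, -0.69, did not pass (adjusted p = 0.021). Between the mutants, across tables, both genes were lower in INSL3-KI, Fgf16 by a log2 difference of -1.74 ± 0.27 (adjusted p = 0.0012) and Fgf18 by -1.86 ± 0.29 (adjusted p = 0.0013), among 7 of 20 genes called there (beside 22.5% of all genes, 10.5% lower and 11.9% higher), 6 lower and 1 higher, or 4 lower and 3 higher with scaling by library size alone. The higher one was Fgf2, and the lower ones took in Fgf12, both counted over different lengths.

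Fgf21, a metabolic hormone of liver and stressed muscle, had 110, 56 and 66 counts in WT at P8, 0, 3 and 6 in INSL3-KI and 28, 8 and 27 in INSL3-KO. It fell by 4.75 ± 0.81 in INSL3-KI (adjusted p = 0.0015). The log2 change of -2.25 ± 0.56 in INSL3-KO (adjusted p = 0.0092) was lost whichever of the 6 libraries was left out (adjusted p up to 0.029). Fgf5, a ligand of the hair follicle, was under 1 CPM in each group (16, 22 and 19 counts in WT, 4, 0 and 2 in INSL3-KI), and its call in INSL3-KI (adjusted p = 0.0090) was likewise lost without any 1 of the 6 libraries (adjusted p up to 0.047).

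The mesenchymal ligands Fgf7 and Fgf10 and the broadly expressed Fgf1, Fgf2 and Fgf9 were not called in P8 gubernaculum of INSL3-KI. Their log2 fold changes there were -0.94 for Fgf7 (adjusted p = 0.0047, under 2-fold), -0.78 for Fgf10 (adjusted p = 0.022), 0.80 for Fgf1 (adjusted p = 0.024), -0.49 for Fgf2 (adjusted p = 0.016) and 0.36 for Fgf9 (adjusted p = 0.15). Fgf7 was also called between the mutants, with 13.1, 10.8 and 17.1 CPM in INSL3-KI against 29.9, 29.5 and 34.5 in INSL3-KO (log2 difference -1.19 ± 0.17, adjusted p = 0.00089). Of the remaining ligand genes, the highest count in any library of either tissue was 5 for Fgf20, 6 for Fgf23, 16 for Fgf4, 22 for Fgf17, 30 for Fgf3 and 52 for Fgf8. Fgf22 had 0 to 18 counts in gubernaculum.

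**Figure D2:**
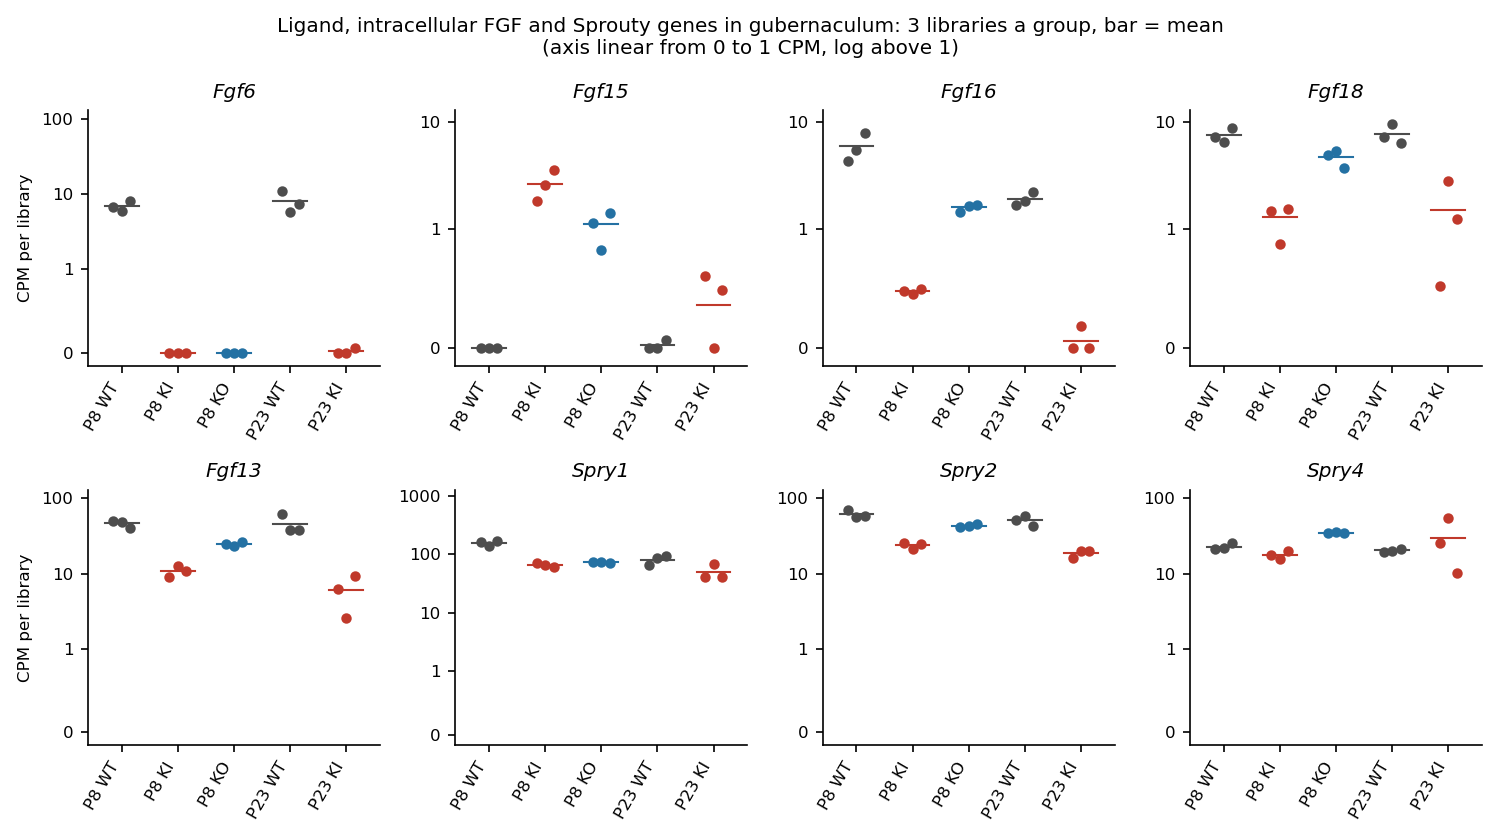
CPM per library (y axis, linear from 0 to 1 and logarithmic above) of 4 ligand genes, Fgf13 and the 3 Sprouty genes in the 5 gubernaculum groups (x axis). Points are libraries, 3 a group, and bars are means. Fgf6 lies at 0 in the P8 mutant libraries, Fgf15 at 0 in P8 WT, and Spry2 lies below WT in INSL3-KI at both ages.

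The intracellular FGFs fell in part. Fgf13, which had the most counts of the 4 in WT gubernaculum, had 1584, 1609 and 1279 counts in WT at P8, 357, 447 and 372 in INSL3-KI and 930, 1026 and 1133 in INSL3-KO. It fell by 2.05 ± 0.16 in INSL3-KI (adjusted p = 2.1e-05), and the INSL3-KO value of -0.93 was under 2-fold. INSL3-KI lay below INSL3-KO (log2 difference -1.16 ± 0.14, adjusted p = 0.00032). Fgf12 had 9.38, 8.14 and 6.45 CPM in WT and 1.80, 2.06 and 1.40 in INSL3-KI, a log2 change of -2.14 ± 0.26 (adjusted p = 0.00023). Fgf11 had 19.1, 18.4 and 29.0 CPM in WT, 10.8, 17.5 and 13.4 in INSL3-KI (-0.63, adjusted p = 0.054) and 9.44, 12.1 and 10.8 in INSL3-KO. Its log2 change of -1.04 ± 0.20 in INSL3-KO (adjusted p = 0.0030) was lost without INSL3-KO replicate 1 or 3 or WT replicate 3 (adjusted p up to 0.014). Fgf14 stayed under 1 CPM in every P8 gubernaculum library.

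The receptor genes changed order. In WT gubernaculum at P8 the FPKM values, which allow for length, were 160 ± 19.7 (SD, n = 3) for Fgfrl1, 61.3 ± 5.84 for Fgfr1, 28.7 ± 3.27 for Fgfr4, 1.35 ± 0.105 for Fgfr3 and 0.623 ± 0.171 for Fgfr2. In INSL3-KI they were 79.2 ± 4.48 for Fgfr2, 39.6 ± 1.23 for Fgfr1, 22.6 ± 1.60 for Fgfrl1, 6.97 ± 1.80 for Fgfr3 and 1.72 ± 0.196 for Fgfr4, so that the receptor with the lowest level in WT had the highest. In INSL3-KO Fgfr2 again led with 44.4 ± 4.83, Fgfrl1 (30.8 ± 1.00) and Fgfr1 (30.1 ± 1.46) lay within their spread of each other, and Fgfr4 (4.48 ± 0.501) and Fgfr3 (3.04 ± 0.229) followed.

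Fgfr2, the receptor of epithelia in its IIIb form and of mesenchyme in its IIIc form, which gene counts do not separate, had 2.37, 3.06 and 3.95 CPM in WT at P8. The INSL3-KI libraries had 272, 304 and 290 CPM and the INSL3-KO libraries 186, 167 and 183. The 3 groups stood apart, and Fgfr2 rose by 6.57 ± 0.20 in INSL3-KI (adjusted p = 2.3e-07) and by 5.83 ± 0.19 in INSL3-KO (adjusted p = 1.3e-06). The 8 epithelial markers rose in both mutants (8 of 8 called in each), from summed levels of 36.5, 124 and 69.7 CPM in WT to 1380, 1660 and 1430 in INSL3-KI and 747, 738 and 699 in INSL3-KO. Among them Pax8, a factor of Wolffian and Müllerian duct epithelium, had 7, 4 and 0 counts in WT and 2712, 3501 and 2380 in INSL3-KI. The part of epithelium in the Fgfr2 result was not tested.

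Fgfr4, the receptor of the muscle lineage, had 124, 98.2 and 112 CPM in WT at P8, 5.67, 4.59 and 5.10 in INSL3-KI and 17.6, 14.0 and 15.1 in INSL3-KO. It fell by 4.40 ± 0.14 in INSL3-KI (adjusted p = 2.8e-07) and the INSL3-KO value was -2.84 ± 0.12 (adjusted p = 2.8e-06). INSL3-KI lay below INSL3-KO (-1.60 ± 0.15, adjusted p = 0.00010). Fgfrl1 had 477, 378 and 403 CPM in WT, 43.0, 45.8 and 49.4 in INSL3-KI and 88.9, 82.5 and 85.4 in INSL3-KO, log2 changes of -3.15 ± 0.13 (adjusted p = 8.2e-07) and -2.29 ± 0.10 (adjusted p = 2.9e-06). For both genes the order of groups was that of the summed skeletal muscle markers given above for Fgf6.

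Fgfr1, the main mesenchymal receptor, was even in WT at P8, with 302, 305 and 304 CPM. INSL3-KI had 167, 156 and 164 CPM, a value of -0.86 ± 0.09 that was under 2-fold (adjusted p = 8.5e-05), and INSL3-KO had 117, 116 and 108, a log2 change of -1.42 ± 0.07 (adjusted p = 3.8e-06). Both mutants lay below every WT library. Fgfr3, a receptor of cartilage and several epithelia, had 6.06, 6.30 and 6.52 CPM in WT, 19.4, 33.2 and 25.3 in INSL3-KI and 12.7, 14.2 and 12.9 in INSL3-KO. It rose by 2.09 ± 0.21 (adjusted p = 9e-05) and by 1.07 ± 0.12 (adjusted p = 0.00022). Its exons share 998 bases with G630022F23Rik on the other strand, 13.9% of its exonic bases.

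**Figure D3:**
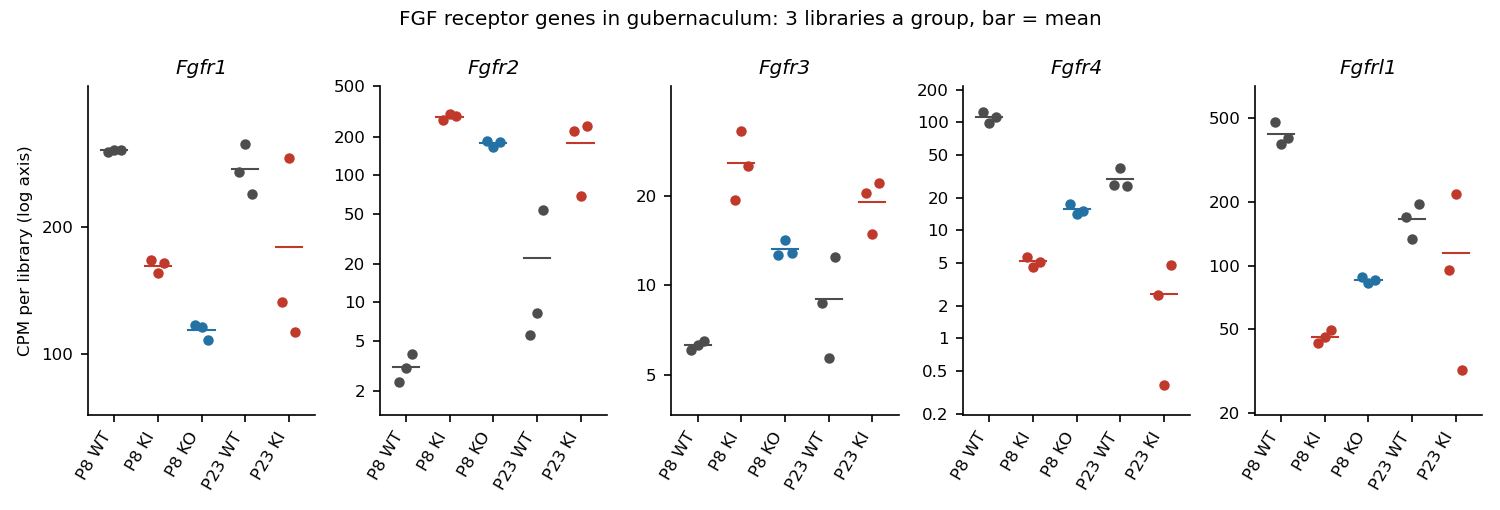
CPM per library (log axis, a different range in each panel) of the 5 receptor genes in the 5 gubernaculum groups, with libraries as points and group means as bars. At P8 Fgfr2 moves from 2.37 to 3.95 CPM in WT to 272 to 304 in INSL3-KI, and Fgfr4 from 98.2 to 124 CPM to 4.59 to 5.67.

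The Sprouty genes encode feedback inhibitors that FGF signalling itself switches on. Spry1 had 166, 141 and 169 CPM in WT at P8, 72.0, 66.5 and 61.5 in INSL3-KI and 74.3, 73.3 and 72.3 in INSL3-KO, and it fell in both, with log2 fold changes of -1.21 ± 0.11 (adjusted p = 4.7e-05) and -1.12 ± 0.09 (adjusted p = 3.2e-05). The mutants lay at similar levels, both below WT. Spry2 had 70.6, 55.8 and 58.8 CPM in WT, 25.8, 21.1 and 24.7 in INSL3-KI and 42.0, 42.8 and 45.4 in INSL3-KO. It fell by 1.33 ± 0.13 in INSL3-KI (adjusted p = 6.8e-05), and the INSL3-KO value was -0.51 (adjusted p = 0.0028, under 2-fold). Spry4 was not called: 21.1, 21.6 and 25.6 CPM in WT, 17.4, 15.8 and 19.9 in INSL3-KI (-0.32, adjusted p = 0.081) and 34.6, 35.1 and 35.0 in INSL3-KO (0.62, adjusted p = 0.0010, under 2-fold). Of the exonic bases of Spry1, 24.4% lie opposite Gm42922.

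Elsewhere in the pathway, few genes of the kinase relay moved in P8 gubernaculum. Of 21 relay genes 3 were called in INSL3-KI and 3 in INSL3-KO, all lower, with medians of -0.20 and -0.34 beside 0.02 and 0.03 over all genes tested. Of 17 response genes 3 fell and 3 rose in INSL3-KI and 4 fell and 1 rose in INSL3-KO. Etv5, a transcription factor switched on by FGF signals, fell in both, with log2 fold changes of -1.37 ± 0.14 (adjusted p = 0.00010) and -1.61 ± 0.11 (adjusted p = 2.3e-05). Etv4 (0.53 and 0.09), Dusp6 (-0.50 and 0.02), Etv1, Spred1, Spred2 and Il17rd were not called in either mutant. For Dusp6 in INSL3-KI the adjusted p was 0.0033, with a change under 2-fold. In INSL3-KO, Il17rd (-0.90, adjusted p = 0.0075) and Spred1 (0.31, adjusted p = 0.0079) were likewise under 2-fold. Spred3 fell in INSL3-KO alone (-1.67 ± 0.28, adjusted p = 0.0014). Among 15 enzymes that build or trim heparan sulfate, 4 fell in INSL3-KI and 5 in INSL3-KO and none rose, and Hs6st2, a sulfotransferase, fell in both, with log2 fold changes of -4.68 ± 0.22 (adjusted p = 1.7e-06) and -2.19 ± 0.11 (adjusted p = 5.6e-06). Of the co-receptors and binding proteins, 3 fell and 1 rose of 17 tested in INSL3-KI, and 5 fell and 4 rose of 18 in INSL3-KO, and Klb, the co-receptor for Fgf15 and Fgf21, rose in both, by 5.75 ± 0.44 (adjusted p = 2.1e-05) and 7.05 ± 0.25 (adjusted p = 1.5e-06). Markers of other cell types moved in the same libraries. The 8 adipocyte markers summed to 95.6 to 110 CPM in WT, 771 to 1050 in INSL3-KI and 2060 to 2290 in INSL3-KO, with 7 of 8 called higher in each. The 8 smooth muscle markers summed to 3540 to 3970, 16100 to 20600 and 7740 to 8240 CPM, with 6 higher and 1 lower in each. The 10 fibroblast markers summed to 43900 to 46900, 17700 to 26200 and 28200 to 29900 CPM, and of these 3 fell and 1 rose in INSL3-KI, while 2 fell and 1 rose in INSL3-KO. The part of these cells in the changes of FGF, receptor, Sprouty and pathway genes was not tested.

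At P23 the INSL3-KI gubernaculum libraries differed among themselves, and 1 of 20 genes tested was called, beside 2.57% of all genes (2.35% lower and 0.212% higher). That gene was Spry2, with 51.9, 58.8 and 43.3 CPM in WT and 15.9, 20.2 and 19.7 in INSL3-KI, a log2 change of -1.46 ± 0.18 (adjusted p = 0.0088). The groups did not overlap, though the call was lost without any 1 of the 6 libraries (log2 fold change -1.58 to -1.35, adjusted p up to 0.047). DESeq2 called 9 genes in this comparison, 8 lower and 1 higher, and 12 had an unadjusted p under 0.05 in edgeR. INSL3-KI replicate 2 stood apart: its epithelial markers summed to 8.07 CPM against 1620 and 2290 in replicates 1 and 3, its adipocyte markers to 15000 against 6420 and 501, and its skeletal muscle markers to 120 against 1680 and 1480. Without it 3 genes were called, all lower.

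The receptor levels also differed among these libraries at P23. Fgfr2 had 5.51, 8.29 and 52.9 CPM in WT and 224, 68.9 and 243 in INSL3-KI, with the highest WT value in the library whose epithelial markers were highest (360 CPM against 125 and 183). Its log2 fold change was 3.03 ± 1.02 (adjusted p = 0.10), and 2.57 to 4.70 with 1 library left out. In INSL3-KI replicate 2 Fgfr2 had 68.9 CPM and the epithelial markers summed to 8.07 CPM. The part of epithelium in the Fgfr2 levels at P23 was not tested. Fgfr4 had 26.1, 37.8 and 25.5 CPM in WT and 2.51, 0.370 and 4.71 in INSL3-KI (-3.54 ± 0.86, adjusted p = 0.049). Fgfrl1 ranged over 95.7, 218 and 32.1 CPM in INSL3-KI around the WT values of 170, 134 and 196 (-0.54, adjusted p = 0.58), Fgfr1 over 133, 292 and 113 beside 270, 315 and 240 (-0.62, adjusted p = 0.30), and Fgfr3 had 20.5, 14.9 and 22.1 CPM beside 8.76, 5.70 and 12.5 (1.11, adjusted p = 0.087).

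Of the ligands at P23, Fgf1 had 124, 87.6 and 73.9 CPM in WT and 20.6, 10.8 and 26.4 in INSL3-KI (-2.29 ± 0.40, adjusted p = 0.021). At P8 its fold change had the other sign (0.80), and the difference between the ages was -3.12 ± 0.50 (adjusted p = 0.012 in the interaction test). No FGF, receptor or Sprouty gene was called in that test among 23, beside 0.281% of all genes (0.194% lower and 0.0874% higher), although 8 had an unadjusted p under 0.05 and DESeq2 called 3. Fgf9 had 6.95, 0.123 and 9.70 CPM and Fgf10 18.9, 60.8 and 10.6 in the INSL3-KI libraries at P23, so that replicate 2 was the lowest in the first and the highest in the second.

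**Figure D4:**
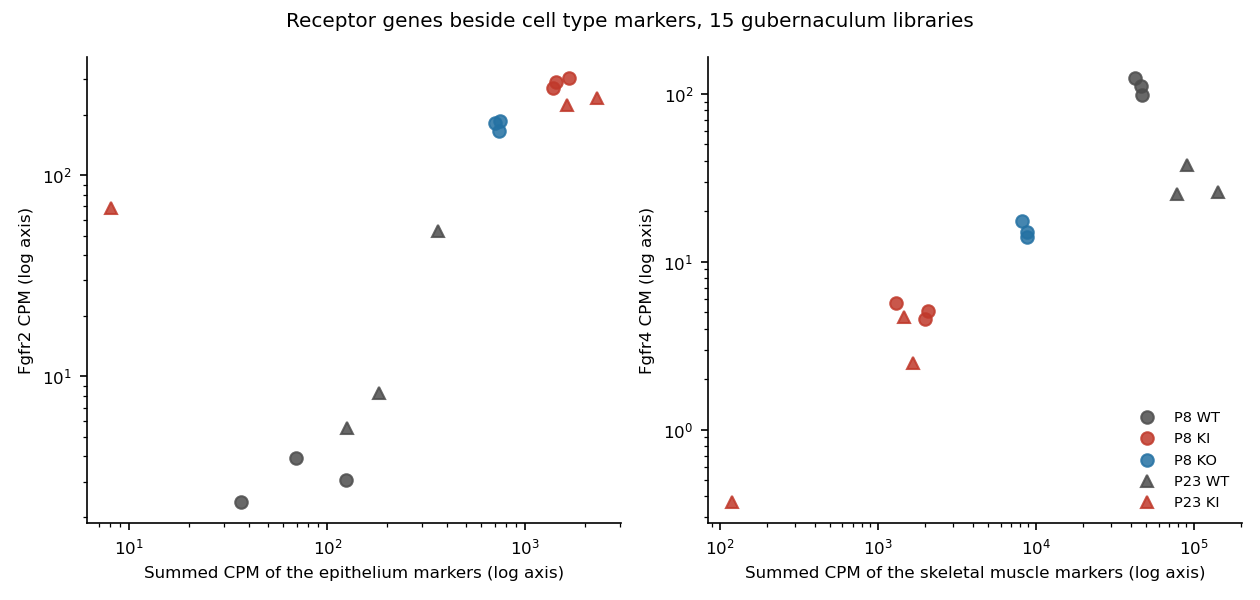
Fgfr2 CPM against the summed CPM of 8 epithelium markers (left) and Fgfr4 CPM against that of 16 skeletal muscle markers (right) in the 15 gubernaculum libraries, all axes logarithmic, circles for P8 and triangles for P23. The P8 groups lie apart on both axes, and the P23 INSL3-KI library with 8.07 CPM of epithelium markers has 68.9 CPM of Fgfr2.

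In WT, the gubernaculum and the testis of P8 differed in their FGF genes. Of 24 genes tested 13 were higher and 1 lower in gubernaculum, beside 28.4% of all genes called (14.1% higher and 14.3% lower). Higher in gubernaculum were Fgf6 (216, 199 and 257 counts against 0, 5 and 0), Fgf16 (139, 183 and 254 against 0, 0 and 5), Fgfr4 (log2 difference 5.06 ± 0.30, adjusted p = 1.3e-05) and Fgfrl1 (3.37 ± 0.12, adjusted p = 1.9e-06), with Fgf2, Fgf5, Fgf7, Fgf9, Fgf10, Fgf21, Fgfr1, Spry1 and Spry2. Fgfr2 was higher in testis, with FPKM of 9.87 ± 3.92 against 0.623 ± 0.171 (SD, n = 3, log2 difference -3.41 ± 0.37, adjusted p = 0.00022). The calls of Fgf5, Fgf9 and Fgf10 were lost when single libraries were left out, in 6, 5 and 4 of the 6 fits (adjusted p up to 0.037).

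Between P8 and P23, WT gubernaculum lost Fgfr4 (124, 98.2 and 112 CPM to 26.1, 37.8 and 25.5, a log2 change of -1.90 ± 0.19, adjusted p = 0.0011) and gained Fgf1 (14.1, 27.2 and 22.5 CPM to 124, 87.6 and 73.9, 2.15 ± 0.28, adjusted p = 0.0023). Of 22 genes tested, 5 fell (Fgf10, Fgf12, Fgf16, Fgfr4 and Fgfrl1) and 1 rose, beside 10.5% of all genes (4.34% lower and 6.17% higher). The call of Fgfr4 held in all 6 fits without 1 library. That of Fgf1 was lost without P8 replicate 1 or 3 (adjusted p up to 0.015), Fgfrl1 (-1.34 ± 0.18, adjusted p = 0.0026) lost its call without any 1 P8 library (up to 0.015), Fgf10 kept its call in 1 of 6 fits and Fgf12 in 2, and Fgf16 in none (up to 0.015, 0.022 and 0.044). Fgf6 stayed at its level (0.20 ± 0.27, adjusted p = 0.60).

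In testis at P8 the Sprouty genes, Fgfr1 and several FGF response genes lay below WT in both mutants, and most missed the threshold in INSL3-KI. In INSL3-KI 1 of 22 genes was called, Spry2, beside 6.29% of all genes, 3.25% lower and 3.03% higher (13 of the 22 had an unadjusted p under 0.05, and DESeq2 called 7, 5 lower and 2 higher). In the group labelled INSL3-KO 7 of 23 were called, 6 lower and 1 higher, beside 13.8% of all genes (8.37% lower and 5.44% higher), and 5 without those counted over different lengths. Spry2 had 15.6, 18.6 and 22.6 CPM in WT, 8.44, 6.57 and 7.32 in INSL3-KI and 10.6, 11.6 and 8.89 in the libraries labelled INSL3-KO. It fell by 1.28 ± 0.20 in INSL3-KI (adjusted p = 0.0066), a call that was lost without INSL3-KI replicate 1 or 3 or WT replicate 2 or 3 (adjusted p up to 0.039), and the value of the group labelled INSL3-KO against WT was -0.85 (adjusted p = 0.0042, under 2-fold).

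Spry1 had 44.8, 58.0 and 68.0 CPM in WT testis at P8, 32.2, 25.9 and 29.6 in INSL3-KI (-0.90 ± 0.18, adjusted p = 0.012) and 24.5, 25.0 and 26.1 in the group labelled INSL3-KO, where it fell by 1.15 ± 0.15 (adjusted p = 0.00057) and was under 2-fold without WT replicate 3. Spry4 had 12.3, 20.4 and 21.1 CPM in WT, 8.94, 7.03 and 6.79 in INSL3-KI (-1.18 ± 0.25, adjusted p = 0.015) and 7.61, 6.89 and 8.36 in the other mutant group, a log2 change of -1.21 ± 0.21 (adjusted p = 0.0026) that was lost without any 1 of its 3 mutant libraries or WT replicate 2 (up to 0.016). All mutant libraries lay below all WT libraries for the 3 Sprouty genes, and how many of all genes did so was not counted. Fgfr1 had 105, 115 and 162 CPM in WT, 69.1, 48.2 and 67.4 in INSL3-KI (-0.98 ± 0.22, adjusted p = 0.017) and 64.0, 61.7 and 56.9 in the group labelled INSL3-KO, a log2 change of -1.04 ± 0.16 (adjusted p = 0.0014) that was under 2-fold without mutant replicate 3 or WT replicate 3 (-0.83 at the least).

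Fgf15 again had 0 counts in WT testis at P8, with 8, 9 and 8 in INSL3-KI, too few to be tested, and 20, 12 and 34 in the libraries labelled INSL3-KO, at least 6.72-fold higher (adjusted p = 0.0048, lost without any 1 mutant library or WT replicate 2, up to 0.023). Fgf18 had 4.77, 5.64 and 7.29 CPM in WT and 1.68, 1.99 and 3.15 in that group, a log2 change of -1.35 ± 0.30 (adjusted p = 0.0074, lost without mutant replicate 1 or 2 or WT replicate 2 or 3, up to 0.035). In INSL3-KI Fgf18 had 2.92, 1.90 and 3.02 CPM (-1.11, adjusted p = 0.031). WT replicate 3 stood apart in stromal genes, with 21500 CPM of fibroblast markers against 7060 and 11400 in the other WT libraries and 3260 to 5380 in the mutants, and with 8.85 CPM of Fgf1 against 0.724 and 1.31 and 8.34 CPM of Fgf10 against 1.12 and 2.12. The 6 endothelial markers summed to 207 to 347 CPM in WT and 89.4 to 132 in the mutants. The 9 spermatocyte markers summed to 79.1 to 121 CPM in WT, 362 to 1330 in INSL3-KI and 517 to 521 in the group labelled INSL3-KO. Of 7 tested, 4 and 5 were called higher. The 8 Leydig cell markers, Insl3 among them, summed to 628 to 756, 208 to 220 and 438 to 457 CPM, with 5 and 3 called lower and 1 higher in each. The part of stroma, germ cells and Leydig cells in these results was not tested.

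The response genes moved with the Sprouty genes at P8. Of 17, 6 fell in INSL3-KI testis and 8 in the group labelled INSL3-KO, none rose, and the medians were -0.70 and -0.90 beside 0.00 and -0.02 over all genes tested. Of all genes 3.25% and 8.37% were called lower in these comparisons. Etv4, an FGF-induced transcription factor, fell in both, with log2 fold changes of -2.01 ± 0.30 (adjusted p = 0.0060) and -1.91 ± 0.17 (adjusted p = 0.00014), as did Il17rd, an inhibitor of FGF receptors, with -1.61 ± 0.27 (adjusted p = 0.0078) and -1.63 ± 0.11 (adjusted p = 4.5e-05). Dusp6, the phosphatase of ERK, fell by 1.20 ± 0.14 in INSL3-KI (adjusted p = 0.0041), and the log2 fold changes of Etv1 were -1.03 ± 0.18 (adjusted p = 0.0092) and -1.53 ± 0.10 (adjusted p = 4.6e-05). Whether calls of response and other pathway genes held with 1 library left out is not given here. No relay gene was called in INSL3-KI and 1, Cbl, in the other group, which stood in another table than WT. Between the mutants at P8 the called genes, beside 3.92% of all genes (1.16% lower and 2.76% higher), were Fgf2 and Fgf22, both counted over different lengths. Within the first table Fgf22, a ligand known from synapses, had 41, 21 and 24 counts in WT testis and 107, 87 and 70 in INSL3-KI at P8, without overlap (log2 fold change 1.60 ± 0.43, adjusted p = 0.030).

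At the later ages Fgfr1 and the Sprouty genes lay above WT in INSL3-KO at P23 and in INSL3-KI at P40. In INSL3-KO testis at P23, 12 of 21 genes were called, 4 lower and 8 higher, beside 64.4% of all genes, 33.4% lower and 31.1% higher (3 genes lower and 11 higher with scaling by library size alone, under which the median of all genes moved by 0.64). In INSL3-KI testis at P40, 8 of 22 were called, 2 lower and 6 higher, beside 47.7% of all genes (22.1% lower and 25.6% higher). With scaling by library size alone 2 genes were lower and 10 higher there, and without WT replicate 1 the count was 5. The share of FGF genes called was below that of all genes in both comparisons. Germ cells differed between these groups: the 10 spermatid markers summed to 21500 to 24000 CPM in WT and 90.5 to 98.6 in INSL3-KO at P23, and to 15100 to 18900 in WT and 192 to 801 in INSL3-KI at P40, with 10 of 10 called lower in each. The 10 Sertoli cell markers summed to 2380 to 2470 and 11000 to 11300 CPM at P23 and to 1900 to 2160 and 6120 to 8830 at P40, 10 of 10 called higher in each. Fibroblast markers summed to 503 to 529 and 2630 to 2700 CPM at P23 (9 of 10 called higher) and to 368 to 843 and 1520 to 2350 at P40 (5 of 10), and macrophage markers to 115 to 125 and 511 to 527 CPM at P23 and to 101 to 128 and 299 to 431 at P40 (6 of 6 called higher in each). The part of these cells in the changes of FGF genes was not tested.

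Fgfr1 had 16.0, 16.4 and 17.9 CPM in WT testis at P23 and 55.7, 51.4 and 53.8 in INSL3-KO, a rise of 1.74 ± 0.07 (adjusted p = 5e-09). At P40 it had 18.0, 17.9 and 24.8 CPM in WT and 46.4, 64.5 and 66.1 in INSL3-KI, a rise of 1.60 ± 0.23 (adjusted p = 0.0012). Fgfr2 had 8.67, 7.22 and 8.60 CPM in WT and 44.3, 47.6 and 52.6 in INSL3-KO at P23 (2.62 ± 0.10, adjusted p = 2.5e-09). At P40 Fgfr2 had 227, 233 and 448 counts in WT and 1173, 1559 and 2098 in INSL3-KI (1.88 ± 0.29, adjusted p = 0.0017, and 0.010 without WT replicate 1). For both receptors every mutant library lay above every WT library. Fgfr4 rose at P23 (3.59, 3.47 and 3.78 CPM to 8.88, 8.00 and 8.85, 1.31 ± 0.14, adjusted p = 1.1e-05) and was not called at P40 (5.57, 4.11 and 5.74 CPM against 3.69, 6.21 and 7.17). Fgfrl1 had 33.0, 34.5 and 30.9 CPM in WT and 63.3, 52.9 and 59.6 in INSL3-KO at P23 (0.90, under 2-fold), and Fgfr3 was not called at either age.

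All 3 Sprouty genes rose in INSL3-KO testis at P23. Spry1 had 7.66, 8.07 and 8.02 CPM in WT and 18.4, 19.4 and 18.0 in INSL3-KO (1.29 ± 0.10, adjusted p = 9.2e-07), Spry2 3.26, 2.69 and 2.04 against 8.24, 7.61 and 10.5 (1.78 ± 0.21, adjusted p = 2.1e-05) and Spry4 4.80, 6.16 and 4.78 against 9.15, 11.4 and 10.8 (1.06 ± 0.16, adjusted p = 0.00013). The call of Spry4 sat near 2-fold and was lost without INSL3-KO replicate 2 or WT replicate 1 or 3 (0.97 at the least). In INSL3-KI at P40, Spry2 had 6.23, 7.18 and 7.02 CPM against 2.28, 2.10 and 2.05 in WT (1.73 ± 0.18, adjusted p = 0.00045). Spry1 had 15.8, 17.5 and 19.0 CPM against 7.76, 6.45 and 10.7 (1.12 ± 0.23, adjusted p = 0.0050), lost without WT replicate 1 or 2 or INSL3-KI replicate 2 or 3 (adjusted p up to 0.022), and Spry4 had 10.4, 11.1 and 11.2 CPM against 7.41, 6.92 and 6.71 and was not called.

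The intracellular FGFs moved in opposite directions in the same libraries. Fgf13 had 2.90, 3.14 and 2.66 CPM in WT at P23 and 16.1, 21.6 and 20.7 in INSL3-KO (2.81 ± 0.16, adjusted p = 5.1e-08), and at P40 2.81, 1.94 and 3.36 in WT and 9.74, 14.7 and 12.5 in INSL3-KI (2.24 ± 0.29, adjusted p = 0.00083). Fgf14 had 23.3, 23.9 and 20.7 CPM in WT at P23 and 2.05, 1.52 and 2.15 in INSL3-KO (-3.51 ± 0.16, adjusted p = 8.4e-09), and at P40 12.8, 13.6 and 13.0 in WT and 2.38, 1.23 and 2.08 in INSL3-KI (-2.74 ± 0.26, adjusted p = 0.00038). Fgf12 fell likewise, from 7.62, 9.25 and 11.5 CPM to 0.240, 0.805 and 0.0967 at P23 (-4.53 ± 0.50, adjusted p = 1.1e-05) and from 10.4, 10.5 and 9.10 to 1.52, 0.676 and 0.269 at P40 (-3.57 ± 0.55, adjusted p = 0.0016). None of these groups overlapped. At these ages Fgf14 and Fgf12 were high in the WT libraries, where spermatid markers were high, and Fgf13 was high where those markers were low. In WT testis at P8 Fgf12 had 3.42, 5.03 and 5.85 CPM, with spermatid markers at 51.6 to 51.9 CPM. The part of spermatids in these values was not tested. Fgf11 was not called at either age.

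Ligands changed at low levels. Fgf1 had 1.17, 0.938 and 0.540 CPM in WT at P23 and 3.87, 3.50 and 3.80 in INSL3-KO (2.13 ± 0.30, adjusted p = 7.3e-05), and 0.526, 0.712 and 0.973 in WT at P40 and 3.25, 2.08 and 4.87 in INSL3-KI (2.24 ± 0.43, adjusted p = 0.0039, lost without INSL3-KI replicate 3 or WT replicate 1 or 2, up to 0.019). Fgf10 had 3.35, 2.53 and 2.87 CPM in WT and 0.854, 1.31 and 1.02 in INSL3-KO at P23, a log2 change of -1.39 ± 0.29 (adjusted p = 0.0012). Fgf21 fell there by 2.29 ± 0.36 (adjusted p = 0.00017), from 48, 36 and 49 counts to 13, 16 and 14. Fgf15 had 3, 3 and 5 counts in WT testis at P23 and 0 in each library of both mutants.

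**Figure D5:**
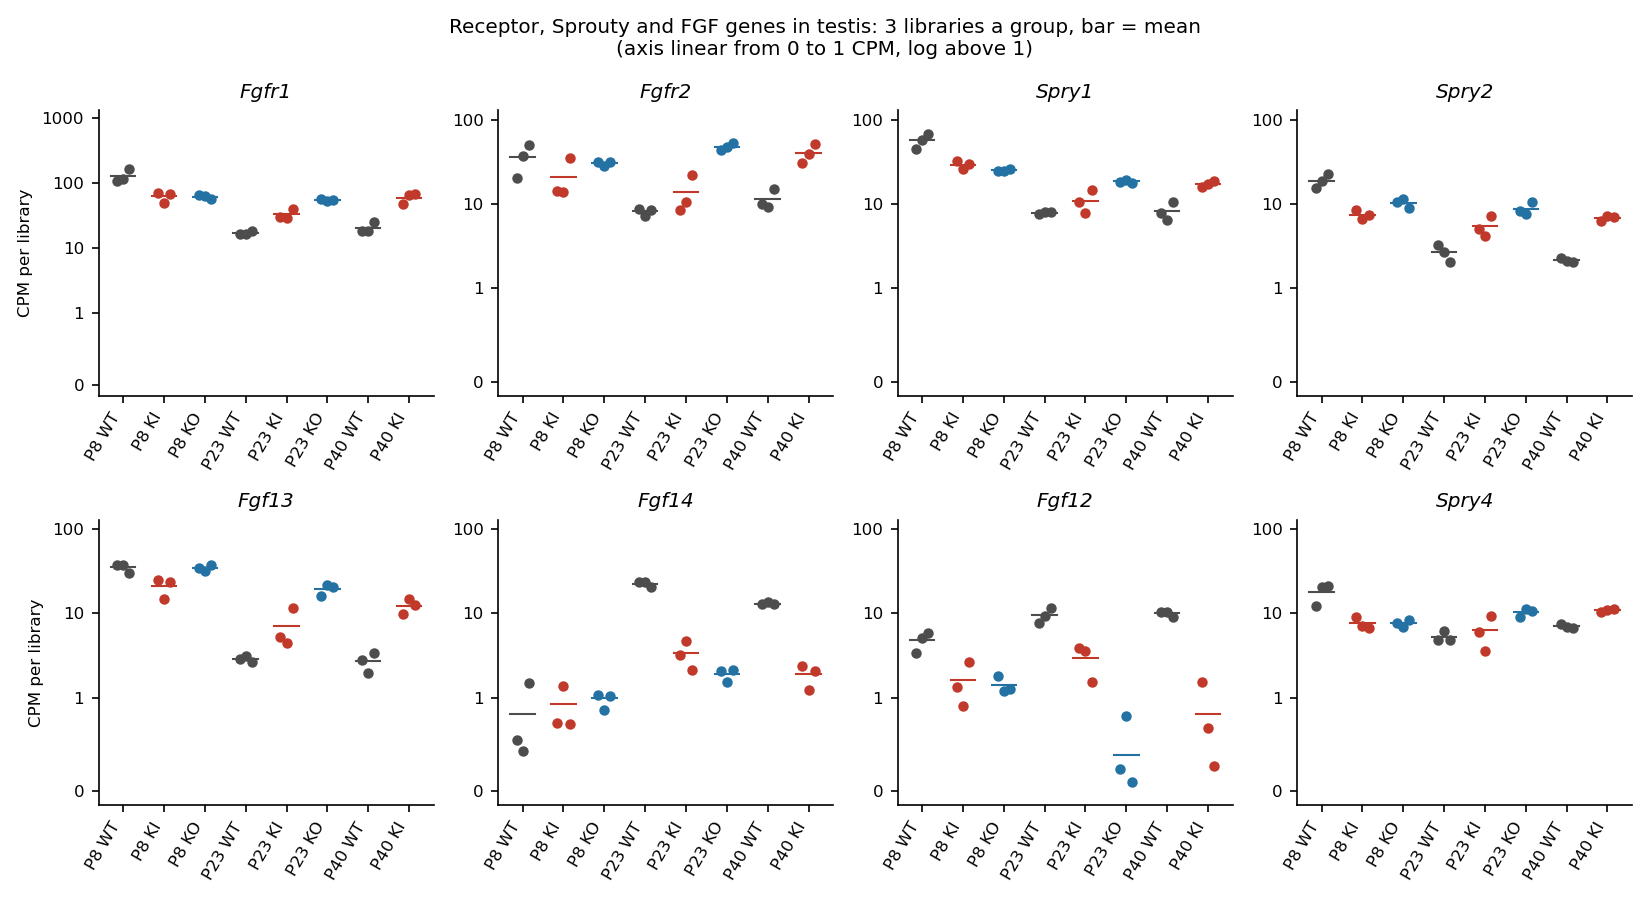
CPM per library (y axis, linear from 0 to 1 and logarithmic above) of 8 genes in the 8 testis groups (x axis), libraries as points and means as bars. Fgfr1, Spry1 and Spry2 lie below WT in the mutants at P8 and above WT in INSL3-KO at P23 and INSL3-KI at P40, while Fgf14 falls from 20.7 to 23.9 CPM in WT to 1.52 to 2.15 in INSL3-KO at P23.

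INSL3-KI testis at P23, whose WT group stands in the other table, lay between WT and INSL3-KO for several of these genes but not for all. Fgfr4 lay below both groups, and Fgf1 (0.978, 0.741 and 1.32 CPM) overlapped WT. Fgf14 had 3.23, 4.68 and 2.15 CPM and was called lower than WT (-2.74 ± 0.30, adjusted p = 0.0013, lost without INSL3-KI replicate 1 or WT replicate 1 or 2, up to 0.011). It was the only gene called apart from Fgf2, of 20 tested and beside 20.6% of all genes, 11.8% lower and 8.81% higher (1 gene lower and 3 higher with scaling by library size alone). Fgfr1 had 29.5, 28.6 and 39.9 CPM (0.98 ± 0.18, adjusted p = 0.0061, under 2-fold) and Fgfr2 8.48, 10.6 and 22.3 (0.78, adjusted p = 0.12). Replicate 3, with the highest Fgfr1 and Fgfr2, also had the most Sertoli cell markers (6040 CPM against 3040 and 2330) and the fewest spermatid markers (858 CPM against 2360 and 2880). Against INSL3-KO 5 of 21 genes were called, beside 38.2% of all genes (13.0% lower and 25.2% higher), a count that was 10 without INSL3-KI replicate 3 and 1 to 3 without any other library. Fgfr4 was lower in INSL3-KI (2.45, 1.96 and 1.87 CPM, log2 difference -2.03 ± 0.22, adjusted p = 0.00048), as were Fgf1 (-1.87), Fgf7 (-2.04) and Fgfr2 (-1.80), whose calls were lost in 4, 5 and 5 of 6 fits without 1 library (adjusted p up to 0.024), and Fgf2 was counted over different lengths.

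Of the 17 response genes, 11 rose and 4 fell in INSL3-KO at P23 (median 1.38 beside 0.06 over all genes), 2 rose and 3 fell in INSL3-KI at P23 (median 0.60 beside 0.08), and 9 rose and 4 fell in INSL3-KI at P40 (median 1.42 beside 0.09). Of all genes 31.1%, 8.81% and 25.6% were called higher in these comparisons, and 33.4%, 11.8% and 22.1% lower. Dusp6 rose by 2.11 ± 0.09 (adjusted p = 5.1e-09) and 1.74 ± 0.25 (adjusted p = 0.0012), and Spred1, another inhibitor of the Ras pathway, by 1.51 ± 0.07 (adjusted p = 1.2e-08) and 1.42 ± 0.20 (adjusted p = 0.0011). Spred3 fell in both, with log2 fold changes of -2.98 ± 0.18 (adjusted p = 8.4e-08) and -2.25 ± 0.14 (adjusted p = 0.00015). Il17rd, which fell in testis at P8, had log2 fold changes of -0.65 ± 0.15 in INSL3-KO at P23 (adjusted p = 0.0027, under 2-fold) and -0.69 ± 0.21 in INSL3-KI at P40 (adjusted p = 0.023). Of the 15 heparan sulfate enzymes 9 rose in INSL3-KO at P23 and 10 in INSL3-KI at P40, and none fell in either.

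Both groups were set against WT testis rich in spermatid markers. In WT between P8 and P40, 11 of 22 genes fell and 3 rose, beside 59.7% of all genes, 27.8% lower and 31.9% higher (12 genes lower and 1 higher with scaling by library size alone). The log2 change was -2.70 ± 0.22 for Fgfr1 (adjusted p = 1.1e-05), -2.82 ± 0.24 for Spry1 (adjusted p = 1.6e-05), -3.20 ± 0.20 for Spry2 (adjusted p = 2.8e-06) and -3.74 ± 0.23 for Fgf13 (adjusted p = 2.3e-06), and Fgf14 rose by 3.94 ± 0.46 (adjusted p = 0.00010). The INSL3-KI effect differed between P40 and P8 in the interaction test for 11 of 23 genes, 9 higher and 2 lower at P40, beside 45.6% of all genes (23.2% higher and 22.5% lower). The difference was 2.93 ± 0.26 for Spry2 (adjusted p = 1.8e-05), which had 7.44 ± 0.939 CPM (SD, n = 3) in INSL3-KI against 19.0 ± 3.52 in WT at P8 and 6.81 ± 0.510 against 2.14 ± 0.123 at P40. Spry2 in INSL3-KI was thus nearly even between the ages while the WT level was not.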

How the data were processed

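RNA-seq was done on mRNA libraries (150 bp paired-end reads). Per the labels and the submitters' processing notes, the authors aligned reads with HISAT2 to GRCm38; the counting program, its annotation and strand setting are not given in the sources used here. The authors deposited read counts and FPKM (fragments scaled to gene length and library depth) per gene in 2 tables. Counts were tested as deposited for the genes in both tables, over every gene passing edgeR's filterByExpr (minimum count 10, total 15), with TMM scaling and the quasi-likelihood test (edgeR 4.0.16, R 4.3.3), adjusted after Benjamini and Hochberg. Each comparison was fitted on its own groups. Where a whole group was at 0, a bound was set at 3 counts per library. Counting intervals are exact at 95% and cover counting error only. Alternatives were DESeq2 1.42.0, no filter, library size alone, a replicate block, limma 3.58.1 on log2(FPKM + 1), each library left out and, chosen after seeing the data, the genes of differing length left out. Per-library values were given for receptors and for members called in at least 1 mutant comparison with a mean of at least 1 CPM in a compared group; from other lists, at most 3 called genes of largest change and 8 response genes were eligible. The members and lists were chosen with earlier results of these data known. The tests were tried on simulated counts. P-values measure the spread between these samples.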

Additional observations from a re-analysis of the deposited data

Results flagged for a closer look

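The effect of INSL3-KI in testis differed between P40 and P8 for 11 of the 23 FGF, receptor and Sprouty genes tested (47.8%), a share close to the 45.6% of all genes, by the interaction term of edgeR's quasi-likelihood test (3 libraries a group). The count is thus no result particular to these genes. The differences of log2 fold changes (P40 minus P8, ± SE) were above 0 for Spry2 (2.93 ± 0.26, adjusted p = 1.8e-05), Spry1 (1.94 ± 0.31, adjusted p = 0.00038) and Spry4 (1.79 ± 0.29, adjusted p = 0.00043). Among receptors they were 2.51 ± 0.35 for Fgfr1 (adjusted p = 0.00018), 2.49 ± 0.64 for Fgfr2 (adjusted p = 0.0059) and -1.71 ± 0.35 for Fgfr3 (adjusted p = 0.0016). Fgfr3 had 8.66, 5.19 and 6.52 CPM in WT and 14.9, 11.1 and 16.8 in INSL3-KI at P8, and 5.66, 7.67 and 8.83 against 5.52, 4.83 and 4.87 at P40. Among ligands they were 3.17 ± 0.62 for Fgf7 (adjusted p = 0.0013), 1.66 ± 0.45 for Fgf18 (adjusted p = 0.0078) and 2.77 ± 0.76 for Fgf9 (adjusted p = 0.0082), and among intracellular FGFs 2.82 ± 0.39 for Fgf13 (adjusted p = 0.00016) and -3.05 ± 0.64 for Fgf14 (adjusted p = 0.0019). Without 1 of the 12 libraries the call was lost in 7 fits for Fgf18 (adjusted p up to 0.022), in 10 for Fgf9 (up to 0.023) and in 8 for Fgfr2 (up to 0.016), and the other 8 genes kept it in all 12. The spermatid markers of the WT libraries rose from 51.6 to 51.9 CPM at P8 to 15100 to 18900 at P40, and their part in these differences was not tested.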

How the results depend on the processing

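No called FGF, receptor or Sprouty result changed direction under any alternative run. The count of called genes moved by over 1.5 times in some. With DESeq2 it was 9 in place of 1 in P23 gubernaculum, 7 in place of 1 in P8 testis of INSL3-KI, 5 in place of 2 in P23 testis of INSL3-KI against WT, and 3 in place of 0 for the difference between ages in gubernaculum. With library size alone it was 0 in P23 gubernaculum and 4 in P23 testis of INSL3-KI against WT. With limma on log2(FPKM + 1) it was 8 in place of 13 in P8 gubernaculum of INSL3-KO, 3 in place of 7 between the mutants there, 2 in P23 gubernaculum, 3 in place of 7 in P8 testis labelled INSL3-KO, 1 in place of 2 between the mutants there, 5 in P23 testis of INSL3-KI against WT, 3 in place of 5 between the mutants at P23, and 2 for the gubernaculum difference. With the replicate number as a block it was 0 in P23 gubernaculum, 0 in P8 testis of INSL3-KI, 1 between the mutants in P8 testis and 2 in place of 6 between the ages of WT gubernaculum. Whether same-numbered libraries shared more than a number is not known, and 3 libraries a group are too few to decide it. Correlations of their deviations ran from -0.17 to 0.44 and in 0 comparisons exceeded 0.1 in every pair. In P23 gubernaculum they were -0.05, 0.32 and 0.44 for replicates 1, 2 and 3. With the genes of differing length left out the count was 0 between the mutants in P8 testis and 1 in P23 testis of INSL3-KI against WT. The cause of these moves was not tested.

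With 1 library left out the counts ran from 13 to 14 (INSL3-KI) and 10 to 12 (INSL3-KO) in P8 gubernaculum, from 6 to 8 between the mutants there, from 0 to 3 in P23 gubernaculum, from 0 to 3 (INSL3-KI), 3 to 9 (INSL3-KO) and 1 to 3 (between them) in P8 testis, from 1 to 3 (INSL3-KI), 11 to 12 (INSL3-KO) and 1 to 10 (between them) in P23 testis, and from 5 to 9 in P40 testis. In WT they ran from 1 to 5 between the ages of gubernaculum, 11 to 14 between those of testis and 11 to 14 between tissues, and for the differences between ages from 0 to 2 in gubernaculum and 8 to 11 in testis. Library size alone moved the median of all genes by 0.32 and 0.17 in P8 gubernaculum, 0.30 in P23 gubernaculum, 0.47 and 0.64 in P23 testis and 0.61 in P40 testis (log2).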
